A study of Mus musculus with 10 samples.

Results

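Pou2af1, Pou2f1 and Pou2f2 were described across the libraries of sorted mouse B cell precursors. They were chosen by gene symbol, as 3 of the 23420 genes in the count files, and the rule itself uses no measured value. Pou2af1 encodes OCA-B, a coactivator of B cells, and Pou2f1 and Pou2f2 encode Oct-1 and Oct-2, the octamer-binding proteins it works with. All 3 genes passed the filter on low counts, as did 14161 genes in all.

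RNA was sequenced from 10 bone marrow libraries of C57BL/6 mice. The pro-B gate was B220+ IgM- CD43+, and the small pre-B gate was B220+ IgM- CD43- with small cells taken by scatter. Each cell type came from mice labelled Control (2 pro-B and 3 small pre-B libraries) and from mice labelled Mta2_VavKO (2 and 3), here called Mta2 KO. Mta2 is a subunit of NuRD, a nucleosome remodeller with histone deacetylase activity. The Vav promoter is active throughout the blood lineages, so a deletion that it drives is not limited to B cells, and the labels do not say which alleles the controls carry, nor the age of the mice. The labels do not tie libraries to animals, so p-values measure the spread between libraries, which may be technical in part. In bulk RNA, fewer cells of a type and less RNA per cell cannot be told apart.

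OCA-B does not bind DNA stably by itself. It docks on the POU domain of Oct-1 or Oct-2 when either sits on the octamer, a motif of immunoglobulin promoters and of several B cell genes. Oct-1 is made in nearly all tissues, Oct-2 mainly in B cells and neurons, and OCA-B mainly in lymphocytes, where it is known for its role in germinal centres.

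The labels and the libraries were checked first. Total counts ranged from 17805507 to 52127004 per library, so that 3 counts correspond to 0.0540 to 0.173 CPM (read counts scaled to the size of the library), far below any level of the 3 genes. They were 48860391 to 52127004 in pro-B and 17805507 to 38392136 in small pre-B libraries. No title number recurs between the cell types either. Differences between cell types below thus cannot be told apart from differences between these 2 sets of libraries. Mta2 stood at 436 and 375 CPM in the pro-B controls against 163 and 166 CPM in the pro-B KO, and at 246 to 438 CPM in the small pre-B controls against 179 to 199 CPM in the small pre-B KO. Its RNA was lower in every KO library of each cell type but not absent, and the counts cover all exons, not the deleted stretch alone. Small pre-B KO libraries 1 and 2 held Xist RNA at 2518 and 2942 CPM, against at most 31.4 CPM in the other 8. The labels give no sex. In the small pre-B gate, whatever sets these 2 libraries apart cannot be fully told apart from the Mta2 label. Small pre-B control 3 carries another number in its file header than in its title, and it stood apart from the other controls in the comparison of replicates. Listed B cell markers were present in every library: 7 of them (Cd79a, Cd79b, Ptprc, Pax5, Ebf1, Vpreb3 and Blnk) summed to 2027 to 2496 CPM in pro-B and 5697 to 7145 CPM in small pre-B libraries. Ptprc, which encodes CD45, is made by other leukocytes too. From pro-B to small pre-B, 6 of the 7 were called higher and 0 lower in controls. In Mta2 KO 6 were called higher and 1 lower. Over all genes 26% were called higher in controls and 24% in Mta2 KO. RNA of other cells was present too. Summed over 10 myeloid markers it was 6308 to 6489 CPM in pro-B controls, 10169.9 to 15089.9 CPM in pro-B KO, 103 to 264 CPM in small pre-B controls and 196 to 376 CPM in small pre-B KO. The 6 markers of plasmacytoid dendritic cells, of which Tcf4 and Bst2 are also made by B cell precursors, summed to 3343 to 3871 CPM in pro-B and 300 to 444 CPM in small pre-B libraries. The summed markers of T cells (8 genes) were at 433 to 580 CPM in pro-B, 17.8 to 62.3 CPM in control and 90.1 to 155 CPM in KO libraries of the small pre-B gate, and those of NK cells (6 genes) at 230.0 to 371, 7.24 to 84.1 and 55.5 to 106 CPM. Markers of plasma cells (5 genes) summed to 548 to 731 CPM in pro-B and 1236 to 2241 CPM in small pre-B libraries, and those of mature B cells (5 genes) to 1195 to 1249 and 548 to 1075 CPM. Single markers went against the latter sum, since 3 of the 5 mature B cell markers were called higher and 1 lower in small pre-B than in pro-B controls. Of 5 erythroid markers, Hba-a1 and Hba-a2 had 0 counts in every library and the sum was at most 14.6 CPM; no marker of the other lists was at 0 in a whole group. The part of these cells in the values below was not tested.

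The 3 genes lie on different chromosomes of mm10. Pou2af1 spans chr9:51213690-51240079 on the plus strand, with 5 counted exons of 2566 bases. Pou2f1 spans chr1:165865154-166002634 on the minus strand, with 18 counted exons of 13123 bases. Pou2f2 spans chr7:25091115-25132460 on the minus strand, with 15 counted exons of 3436 bases. The 250 bases before the start of each gene are shown because the proteins bind the octamer, and its presence at their own genes is a natural question. The sequences come from RefSeq (GRCm38.p6), are written 5′ to 3′ on the strand of the gene, and cover chr9:51213440-51213689, chr1:166002635-166002884 and chr7:25132461-25132710. For Pou2f1, the start farthest upstream is shown. Capitals mark TGACGT, the core of the site bound by CREB and ATF factors.
Pou2af1: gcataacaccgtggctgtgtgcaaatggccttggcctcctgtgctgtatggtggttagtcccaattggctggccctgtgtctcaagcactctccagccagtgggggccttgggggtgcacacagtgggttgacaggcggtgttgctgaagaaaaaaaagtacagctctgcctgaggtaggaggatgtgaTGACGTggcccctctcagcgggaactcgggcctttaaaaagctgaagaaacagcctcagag
Pou2f1: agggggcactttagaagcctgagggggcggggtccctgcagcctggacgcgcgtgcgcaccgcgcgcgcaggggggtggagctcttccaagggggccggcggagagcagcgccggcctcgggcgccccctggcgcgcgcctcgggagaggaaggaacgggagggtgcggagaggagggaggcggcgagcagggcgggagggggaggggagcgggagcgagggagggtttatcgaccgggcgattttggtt
Pou2f2: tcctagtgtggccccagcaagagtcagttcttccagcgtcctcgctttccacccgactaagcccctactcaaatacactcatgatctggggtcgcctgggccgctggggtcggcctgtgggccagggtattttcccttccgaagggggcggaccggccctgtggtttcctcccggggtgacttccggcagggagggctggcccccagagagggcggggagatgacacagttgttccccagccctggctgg

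The octamer, ATGCAAAT on either strand, was in none of these windows. It was in 1.60% of all 32851 RefSeq windows of this kind, so its absence in 3 is what most genes show. The window of Pou2af1 holds 1 sequence that differs from the octamer at a single base, gtgcaaat, 232 bases before the start. Counted from 1 at the 5′ end of the octamer, the substitution is A1G. An octamer with at most 1 mismatch was in 16.6% of all windows. TGACGT, on either strand, was in the Pou2af1 window alone among the 3. It lay 61 bases before the start, with no overlap to the octamer-like sequence. TGACGT was in 6.47% of all windows and, counted by gene, in 11.1% of the genes tested that have a window. The windows differ in base composition, with 56% G and C for Pou2af1, 74.4% for Pou2f1 and 64.8% for Pou2f2, against a median of 52.4%. A match is a description of letters and shows no binding.

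The coactivator gene Pou2af1 was several times higher in small pre-B than in pro-B cells, whatever the Mta2 label. Its level was 571 and 441 CPM in the pro-B controls, 417 and 295 CPM in the pro-B KO, 2277, 2466 and 1975 CPM in controls of the small pre-B gate, and 2703, 2691 and 3451 CPM in the KO of that gate. All 6 small pre-B libraries lay above all 4 pro-B libraries. Groups that did not overlap were found for 73% of all genes between control libraries and 75.9% between KO libraries. The group means were 506 ± 91.9 (SD, n = 2), 356 ± 86.6 (n = 2), 2239 ± 248 (n = 3) and 2948 ± 435 CPM (n = 3). The gene held 0.0304% to 0.0612% of the counts of a pro-B library and 0.181% to 0.333% of those of a small pre-B library. Per length, as RPKM (CPM per kilobase of exon), it ranked 216th to 548th among the 14161 genes tested in pro-B libraries and 10th to 34th in small pre-B libraries.

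From pro-B to small pre-B cells, Pou2af1 rose by 2.15 ± 0.22 on the log2 scale in controls, a fold of 4.42 (edgeR quasi-likelihood test, adjusted p = 5.92e-05). In Mta2 KO cells it rose by 3.05 ± 0.23, a fold of 8.28 (edgeR, adjusted p = 1.28e-05). Here and below the error of a log2 difference is its standard error, and p-values are adjusted over all 14161 genes.

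**Figure D1:**
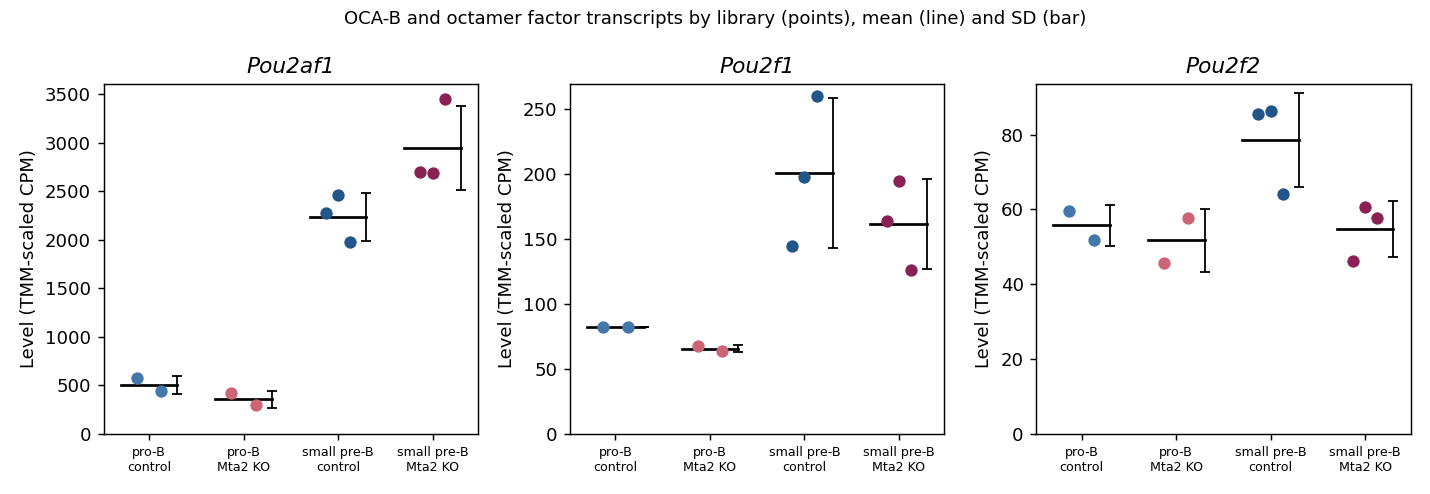
Level of each gene in CPM (vertical axis, linear from 0) in the 10 libraries, by cell type and Mta2 label (horizontal axis); points are libraries, lines group means and bars the SD. Pou2af1 lies at 295 to 571 CPM in pro-B and 1975 to 3451 CPM in small pre-B libraries, while Pou2f1 and Pou2f2 span narrower ranges.

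Between the Mta2 labels, the level of Pou2af1 leaned in opposite directions in the 2 cell types, and neither difference passed the test. In pro-B cells both KO libraries were below both controls, with a log2 difference of -0.51 ± 0.22 (edgeR, adjusted p = 0.755), and groups that did not overlap were found for 55.5% of all genes in this comparison. It was -0.28 without pro-B KO 2, -0.31 without control 1 and -0.78 without KO 1. In small pre-B cells all 3 KO libraries were above all 3 controls, with a log2 difference of 0.40 ± 0.18 (edgeR, adjusted p = 0.207), and 25% of all genes had groups that did not overlap. The difference between these 2 effects was 0.90 ± 0.28, with an unadjusted p of 0.0104 and an adjusted p of 0.689 (edgeR). Of all genes, 6.4% had an unadjusted p below 0.05 for that difference and 0% passed after adjustment; 58 passed with DESeq2, Pou2af1 not among them (adjusted p = 0.241). Without the 2 small pre-B KO libraries that hold Xist RNA, the small pre-B difference was 0.63 (edgeR, adjusted p = 0.272), and the lone KO library is then assumed to vary like the others. Without small pre-B control 3 it was 0.31 (edgeR, adjusted p = 0.386).

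Oct-1, from Pou2f1, was also higher in small pre-B cells, by a smaller factor. It stood at 82.5 and 82.2 CPM in the pro-B controls and at 67.4 and 63.5 CPM in the pro-B KO. Among small pre-B libraries, the controls held 144, 197 and 259.6 CPM and the KO 164, 194 and 126 CPM. Every small pre-B library was above every pro-B library, and the widest spread was among the small pre-B controls, where library 3 was highest. Such groups without overlap held 73% of all genes in controls and 75.9% in Mta2 KO. The rise was 1.28 ± 0.25 on the log2 scale in controls, a fold of 2.44 (edgeR, adjusted p = 0.00218), and 1.30 ± 0.25 in Mta2 KO, a fold of 2.47 (edgeR, adjusted p = 0.00217). Without small pre-B control 3 the rise in controls was 1.06 (edgeR, adjusted p = 0.00188).

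The Mta2 labels showed no called difference in Pou2f1 in the fit of all groups. In pro-B cells both KO libraries were below both controls, and 55.5% of all genes had groups that did not overlap. The log2 difference was -0.33 ± 0.26 (edgeR, adjusted p = 1). In a fit of the pro-B libraries alone it was -0.33 and was called (edgeR, adjusted p = 0.0445). In small pre-B cells it was -0.31 ± 0.21 (edgeR, adjusted p = 0.385), and the groups overlapped. Without small pre-B control 3 the latter was -0.085, and without the 2 libraries that hold Xist RNA -0.67. The effects in the 2 cell types differed by 0.019 ± 0.34 (edgeR, adjusted p = 0.995).

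The counts of Pou2f1 are less certain than those of its partners, since its last exons lie over Cd247, a signalling chain of the T cell receptor on the opposite strand (chr1:165788681-165871153). The genes share 2918 exonic bases, which are 22.2% of the counted length of Pou2f1 and 63.4% of that of Cd247. The counting command in the file headers sets neither strand nor multiple overlap. Under these defaults the counting tool assigns a read that overlaps 2 genes to neither, so reads from the shared stretch were left out of both. The largest exon of Pou2f1, with 10895 bases, makes up 83.0% of its counted length. Cd247 was at 22.5 and 25.3 CPM in pro-B controls, 38.6 and 29.4 CPM in pro-B KO, 4.24, 5.12 and 3.04 CPM in small pre-B controls and 12.6, 14.9 and 10.4 CPM in small pre-B KO. It fell from pro-B to small pre-B cells (log2 difference -2.54 in controls and -1.43 in Mta2 KO, edgeR), the direction opposite to Pou2f1, and was higher in small pre-B KO than in controls by 1.62 (edgeR, adjusted p = 0.0254), a call lost under 9 of 19 alternatives.

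Oct-2, from Pou2f2, differed least between the cell types. It was at 59.7 and 51.8 CPM in pro-B controls and at 45.8 and 57.7 CPM in pro-B KO, which overlap. Small pre-B controls held 85.6, 86.2 and 64.1 CPM, all above the pro-B controls, whereas the KO of that gate held 46.2, 60.5 and 57.6 CPM, which overlaps the pro-B range. Between control libraries 73% of all genes had groups that did not overlap. In controls the rise from pro-B to small pre-B was 0.50 ± 0.18 on the log2 scale, a fold of 1.41 (edgeR, adjusted p = 0.0412). That call was lost under 8 of 17 alternatives, with adjusted p-values from 0.00773 to 0.230 (edgeR and its alternatives). In Mta2 KO the difference was 0.084 ± 0.18 (edgeR, adjusted p = 0.718).

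Between the Mta2 labels, Pou2f2 had the lowest p of the 3 genes in small pre-B cells. All 3 KO libraries were below all 3 controls there, and 25% of all genes had groups that did not overlap. The log2 difference was -0.52 ± 0.16 (edgeR, unadjusted p = 0.00974, adjusted p = 0.0998). It did not pass the 0.05 threshold with edgeR and passed with DESeq2 (-0.53, adjusted p = 0.0301). Without the 2 libraries that hold Xist RNA it was -0.44 (edgeR, adjusted p = 0.365), and without small pre-B control 3 it was -0.65 (edgeR, adjusted p = 0.0540). In pro-B cells the log2 difference was -0.11 ± 0.19 (edgeR, adjusted p = 1). The 2 effects differed by -0.41 ± 0.25 (edgeR, adjusted p = 0.790), so a difference between the cell types was not shown.

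Counted together, 3 of the 3 genes were called higher in small pre-B than in pro-B controls, where 26% of all genes were called higher and 55.4% were called in either direction. In Mta2 KO, 2 of 3 were called higher, against 24% of all genes called higher and 51.3% called in either direction. Between the Mta2 labels 0 of 3 were called in pro-B cells, where 0.0353% of all genes were, and 0 of 3 in small pre-B cells, where 3.02% were. At an unadjusted p below 0.05 (edgeR), Pou2af1 was the 1 gene of 3 in pro-B cells, and Pou2f2 the 1 of 3 in small pre-B cells, against 6.45% and 24.7% of all genes. The 2 stage comparisons use separate libraries, whereas each Mta2 comparison shares its libraries with the stage comparisons, so these counts are not independent.

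**Figure D2:**
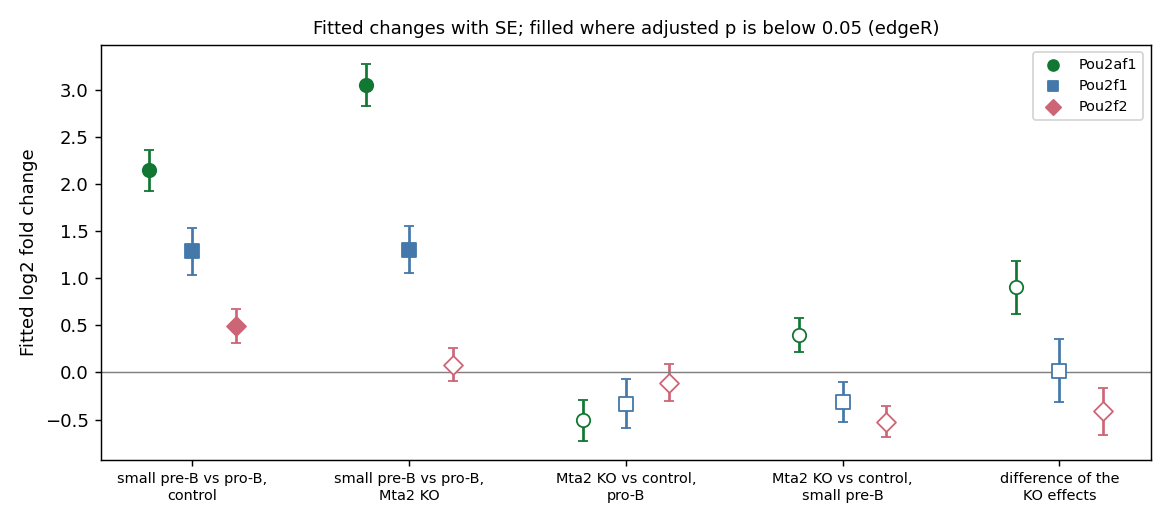
Log2 difference (vertical axis) with its standard error (bars) for each gene in the 5 comparisons (horizontal axis) of the edgeR fit, filled where the adjusted p was below 0.05. The differences between cell types of Pou2af1 (2.15 and 3.05) lie farthest from 0, and those between the Mta2 labels run from -0.52 to 0.40.

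Levels can be compared between genes per length only, and on that scale the coactivator exceeded both factors. In RPKM, which is used for this comparison, Pou2af1 averaged 197 in control and 139 in KO pro-B cells, and 873 and 1149 in the small pre-B gate. In the same order, Pou2f2 averaged 16.2, 15.05, 22.9 and 15.9, and Pou2f1 6.28, 4.99, 15.28 and 12.3. The ratio of Pou2f2 to Pou2f1 was 2.76 and 2.41 in pro-B controls, 2.59 and 3.47 in pro-B KO, 2.26, 1.67 and 0.943 in small pre-B controls and 1.08, 1.19 and 1.75 in small pre-B KO. On this length Oct-2 RNA was above Oct-1 RNA in 9 of the 10 libraries, all but small pre-B control 3. Over the length of Pou2f1 without the bases shared with Cd247, a measure chosen after the values were seen, it was above in 7, and the ratio was 0.837 and 0.924 in small pre-B KO libraries 1 and 2. Reads from the shared bases were counted for neither gene, so this shorter length is nearer to what was counted. The full length thus understates the RPKM of Pou2f1 and overstates the ratio of Pou2f2 to Pou2f1. The log2 ratio moved by -0.76 from pro-B to small pre-B controls (exact two-sided permutation test, p = 0.2) and by -1.20 in Mta2 KO (exact p = 0.1). With 1 library left out the former ran from -1.04 (without small pre-B control 1) to -0.41 (without small pre-B control 3). The smallest p that 2 against 3 libraries allow is 0.1, and the adjusted value over the 4 ratio comparisons was 0.4 for both. Between the Mta2 labels the log2 ratio differed by 0.22 in pro-B cells (exact permutation p = 0.667, smallest possible 0.333; 0.0086 without KO 2 and 0.43 without KO 1) and by -0.22 in small pre-B cells (exact permutation p = 0.7, smallest possible 0.1).

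The RNA of the coactivator per RNA of the 2 factors, each per full counted length (which understates Pou2f1), was also higher in the small pre-B libraries. It was 9.41 and 8.05 in pro-B controls, 8.81 and 5.32 in pro-B KO, 24.7, 23.9 and 20.02 in small pre-B controls and 40.6, 32.3 and 51.0 in small pre-B KO. The pro-B groups overlapped each other, and in the small pre-B gate all KO libraries were above all controls. Among single genes, 25% had groups that did not overlap in the latter comparison. The ratio itself was not tested, and it combines genes of which none was called between the Mta2 labels in that gate (edgeR). It is a ratio of RNA levels and says nothing of protein.

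Among 26 transcription factors and cofactors of the B lineage ranked by mean RPKM, Pou2af1 was 3rd in pro-B control and pro-B KO, 2nd in small pre-B control, behind Spib, and 1st in small pre-B KO. Spib, an ETS factor, averaged 925 RPKM in small pre-B controls and 946 in small pre-B KO, close to Pou2af1 at 873 and 1149. Pou2f2 ranked 21st to 24th and Pou2f1, over its full counted length, 24th to 26th. The octamer-binding factors were thus near the bottom of the list and their coactivator near the top.

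**Figure D3:**
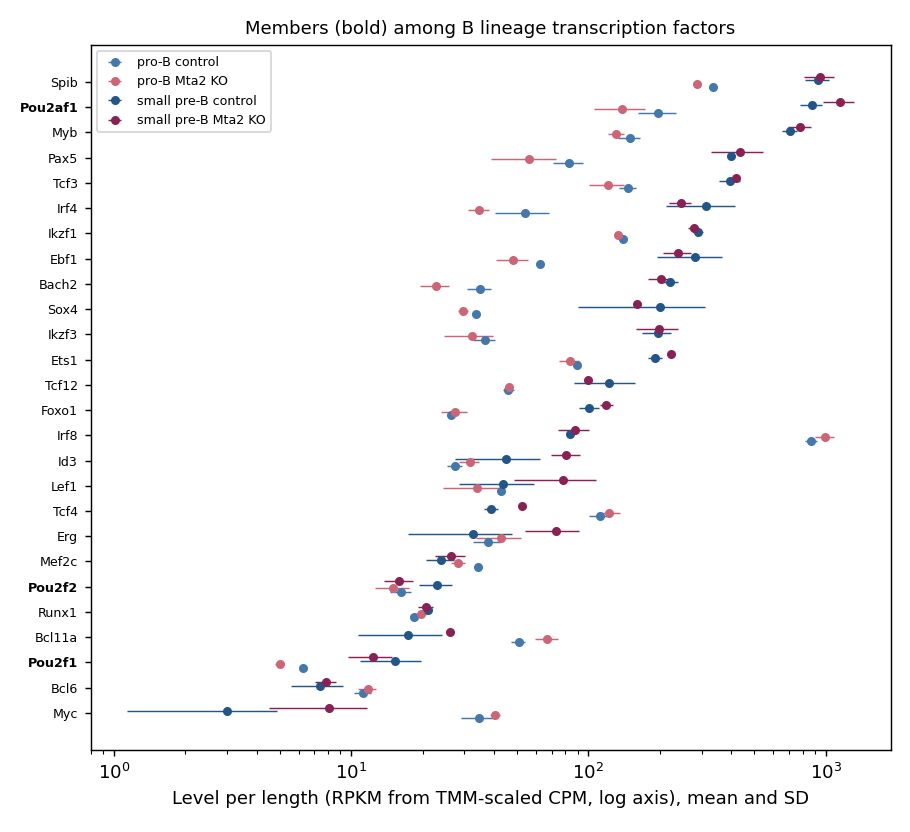
Mean RPKM (horizontal log axis) with its SD (bars) of 26 B lineage factors in the 4 groups (colours), with the 3 octamer genes in bold. Pou2af1 stands among the 3 highest factors in each group, and Pou2f1 and Pou2f2 are among the lowest.

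Since markers of other cells were higher in pro-B libraries, each gene was also expressed as a percentage of the summed CPM of the 7 B cell markers, a measure chosen after the values were seen. For Pou2af1 it was 22.9% and 18.3% in pro-B controls, 17.4% and 14.6% in pro-B KO, 32.8%, 41.4% and 28.2% in small pre-B controls and 43.4%, 47.2% and 48.3% in small pre-B KO. All 6 small pre-B values were above the 4 pro-B values, and in small pre-B cells the KO libraries were above the controls, the nearest pair being 43.4% and 41.4%. For Pou2f1 the pro-B values were 2.80% to 3.41% and the small pre-B values 1.76% to 3.71%, which overlap. For Pou2f2 they were 1.91% to 2.84% in pro-B and 0.743% to 1.45% in small pre-B libraries, all lower. On this scale the direction of Pou2f2 between cell types is the reverse of that in CPM, and Pou2f1 no longer separates the cell types. The sum includes Ptprc, which other leukocytes also make. The summed markers themselves were higher in every small pre-B library, and no test was made on these percentages.

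**Figure D4:**
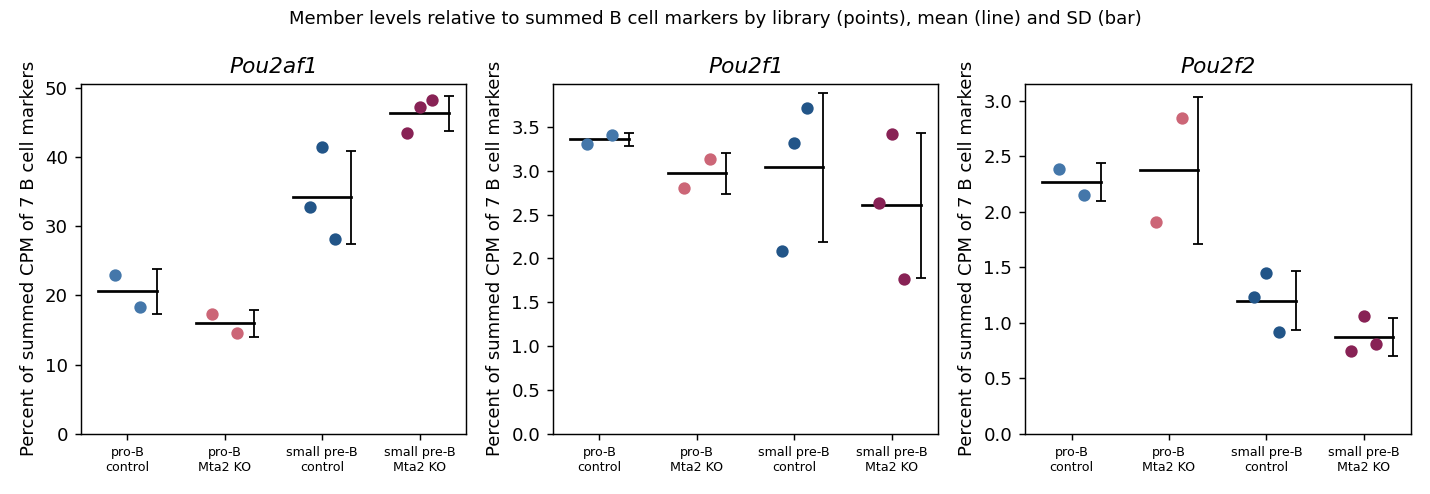
Level of each gene as a percentage of the summed CPM of 7 B cell markers (vertical axis, linear from 0) by cell type and Mta2 label; points are libraries, lines means and bars the SD. Pou2af1 remains higher in small pre-B libraries, Pou2f1 overlaps, and Pou2f2 is lower there at 0.743% to 1.45%.

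By the root mean square difference of centred log2 CPM over the 10 libraries, the gene nearest to Pou2af1 among 11384 candidates was Pax5, the master regulator of B cell commitment, at 0.16 (median of all candidates 1.33). Bcl7a, Apobec1, Chst3 and Tnfrsf19 followed at up to 0.17. The gene nearest to Pou2f1 was Nr2c2, an orphan nuclear receptor, at 0.11, and the gene nearest to Pou2f2 was Mettl14, a subunit of the RNA m6A writer, at 0.16 (median 0.47). Such likeness is a description over libraries of 2 cell types, between which most genes were called. Among the 3 genes themselves, centred values correlated at 0.87 (Pearson) for Pou2af1 and Pou2f1, 0.41 for Pou2af1 and Pou2f2 and 0.47 for Pou2f1 and Pou2f2, over 10 libraries that share their depth and cell type.

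The nearest tested neighbours were read as a check of position. Gm684, 30178 bases beyond Pou2af1, was also higher in small pre-B cells, by 2.71 in controls (edgeR, adjusted p = 0.000177) and 3.11 in Mta2 KO (edgeR, adjusted p = 9.65e-05). Layn, 136595 bases on its other side, was 2.47 higher in small pre-B KO than in control (edgeR, adjusted p = 0.0572) and did not pass. Between the stages Layn differed by -1.97 on the log2 scale in controls (edgeR, adjusted p = 0.0231), opposite to Pou2af1, and its difference of -0.78 in Mta2 KO was not called. Creg1, on the lower side of Pou2f1, fell from pro-B to small pre-B (-1.74 and -1.90), while Tada1 was not called in either stage comparison. Beside Pou2f2, D930028M14Rik rose by 1.29 (edgeR, adjusted p = 0.0443) and 1.54 (edgeR, adjusted p = 0.0269), and Zfp574 was not called.

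Genes reported as targets of the octamer or of OCA-B moved in both directions between the cell types. Of 18 in the list and the files, 15 could be tested, and immunoglobulin genes, the classic targets, were not analysed here. From pro-B to small pre-B controls 6 rose, 5 fell and 4 were not called, where 26% of all genes were called higher and 29.4% lower, with a median log2 difference of 0.091 against -0.023 over all genes. In Mta2 KO 8 rose, 5 fell and 2 were not called, where 24% of all genes were called higher and 27.3% lower, with a median of 1.09 against -0.016. Those that rose with the lowest p were Blk, a Src family kinase (1.95 in controls and 2.56 in Mta2 KO), Cd79b, a chain of the B cell receptor (2.79 and 2.83), S1pr1, a receptor for egress from marrow (3.26 and 3.61), Ms4a1, which encodes CD20 (4.50 and 5.45), and Spib (1.47 and 1.72).

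Named after their values were seen, the targets that fell were Igj, the joining chain of secreted antibodies (-8.44 and -8.15), Kcnn4, a potassium channel (-2.40 and -1.52), the class II genes H2-Aa (-1.73 in both) and H2-Ab1 (-1.23 and -1.51), and Bcl6 (-0.60 and -0.59). In controls the calls of H2-Aa, Bcl6 and H2-Ab1 were lost under 7, 4 and 1 of 17 alternatives. Igj is known from plasma cells, and of 5 other plasma cell markers 2 were called higher and 2 lower in small pre-B controls. The part of other cells, plasmacytoid dendritic cells among them, in the fall of Igj was not tested. H2-Aa and H2-Ab1 are also made by myeloid cells and dendritic cells, whose markers were at 6308 to 15089.9 and 3343 to 3871 CPM in pro-B libraries, and their part was not tested. Of the octamer targets with a promoter window, 0 of 11 held the exact octamer, and the share over genes tested was 1.54%. At so low a share, 0 of 11 cannot set these targets apart from other genes. Ms4a1, Cd79b, Blk, S1pr1 and H2-Ab1 were among the targets without a window, so the count does not cover them.

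**Figure D5:**
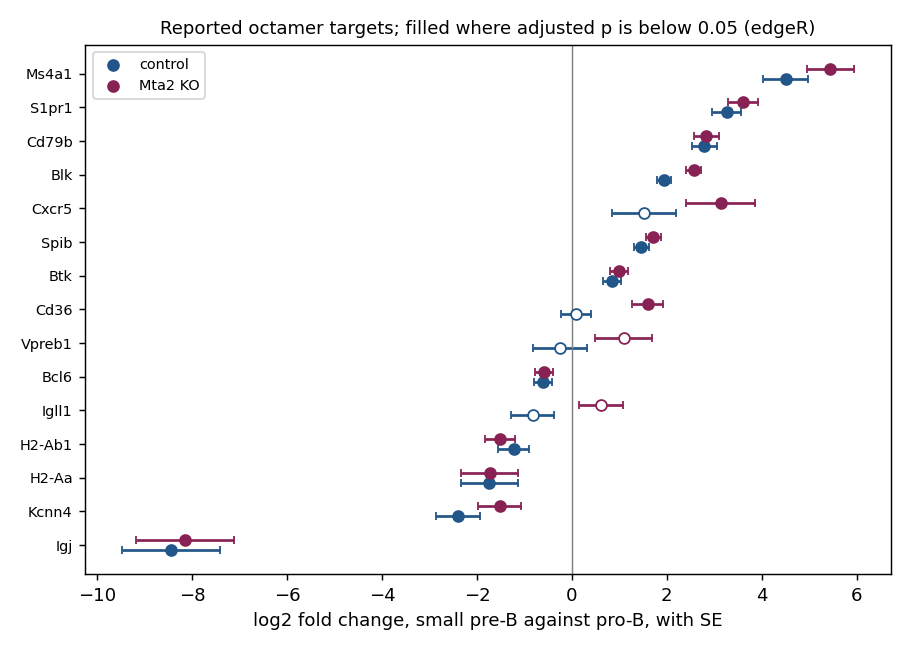
Log2 difference from pro-B to small pre-B cells (horizontal axis) with its standard error (bars) for 15 reported octamer and OCA-B targets, in controls and in Mta2 KO, filled where the adjusted p was below 0.05 (edgeR). Targets spread to both sides of 0, from Ms4a1 at 4.50 to Igj at -8.44 in controls.

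Between the Mta2 labels 0 of the 15 targets were called in either cell type (edgeR), where 0.0353% of all genes were called in pro-B and 3.02% in small pre-B cells. Cxcr5, the chemokine receptor that guides B cells to follicles, had the lowest p in small pre-B cells. Its controls held 3.68, 23.2 and 5.48 CPM, against 48.2, 74.7 and 49.5 CPM under the KO label, without overlap, with a log2 difference of 2.41 (edgeR, adjusted p = 0.0622). Groups did not overlap for 25% of all genes in this comparison. Kcnn4 was next at 1.36 (edgeR, adjusted p = 0.100). In pro-B cells Blk had the lowest p, with 135 and 109 CPM in controls and 90.0 and 76.3 CPM in KO, a log2 difference of -0.55 (edgeR, adjusted p = 0.416). The medians over the list were -0.043 in pro-B and 0.15 in small pre-B cells, against -0.0062 and 0.0059 over all genes.

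Partners of the 3 proteins and factors of their turnover were tested as 20 genes. From pro-B to small pre-B controls 8 rose and 5 fell, with the same counts in Mta2 KO. Over all genes 55.4% and 51.3% were called in either direction. Lgals1, which encodes galectin-1, fell (-3.12 and -3.23), and Syk, a kinase that acts with OCA-B in B cells, rose (1.87 and 1.47). Ldhb, Ldha and Gapdh, whose products are part of the OCA-S complex at histone promoters, fell by 6.83, 1.68 and 1.70 in controls. Named after their values were seen, Siah1a, a ubiquitin ligase that acts on OCA-B, rose (1.30 and 1.26), as did Kdm3a (0.98 and 0.80) and Med1 (0.67 and 0.62). Between the Mta2 labels Mta2 was the 1 gene of 20 called in small pre-B cells, where it fell by 0.93 (edgeR, adjusted p = 0.0420), a call lost under 12 of 19 alternatives. In pro-B cells 0 of 20 were called, and Mta2 was 1.31 lower on the log2 scale (edgeR, adjusted p = 0.212). Over all genes 3.02% were called between the labels in small pre-B and 0.0353% in pro-B cells.

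The promoter of Mta2 was the 1 of 17 in that list with an exact octamer. It is shown since the deleted gene carries this motif. The exact octamer was in 1.54% of genes tested, and binding at Mta2 was not tested. The octamer is in capitals, 234 bases before the start, at chr19:8941674-8941705 on the plus strand (RefSeq, GRCm38.p6).
Mta2: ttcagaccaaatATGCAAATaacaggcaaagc

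The SNAP complex, which Oct-1 recruits to promoters of small nuclear RNA genes, was represented by 5 tested genes. From pro-B to small pre-B cells 1 of them rose, Snapc3, by 1.60 in controls (edgeR, adjusted p = 0.00053) and 1.06 in Mta2 KO (edgeR, adjusted p = 0.0048), and 0 fell. The share of all genes called higher was 26% in controls and 24% in Mta2 KO. Of 13 other POU genes 3 could be tested, and Pou2f3, the remaining gene of the POU class of Oct-1 and Oct-2, had 0 counts in all libraries. Pou6f1 was not called, and Pou4f1 was called higher in small pre-B cells, by 3.45 and 3.85, from low counts. Its pro-B libraries held 5 and 8 counts under the control label, against 1 and 3 under the KO label. In the small pre-B gate Pou4f1 had 31, 27 and 44 counts in controls, against 3, 19 and 18 in KO. Library 1 of the latter was thus at the counting limit of 3 counts. Pou5f2 was 5.24 higher in small pre-B controls, and its difference of 1.45 in Mta2 KO was not called. Small pre-B controls 1 to 3 had 17, 12 and 145 counts of it, and without control 3 the former difference was 3.82 (edgeR, adjusted p = 0.00217). Of 23 further B lineage factors, 14 rose and 6 fell in controls and 15 rose and 5 fell in Mta2 KO. Over all genes 26% were called higher and 29.4% lower in controls, and 24% and 27.3% in Mta2 KO.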

How the data were processed

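Each deposited file gives the unnormalized counts of 1 library by gene symbol. The authors made them with featureCounts 1.4.3-p1 from exons of an mm10 annotation, unstranded, per the file headers, although the kit in the labels keeps strand. The submitters' processing notes also name CASAVA 1.82, STAR and mm9, whereas the exon coordinates are mm10.

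From the counts, 1 model of the 4 groups was fitted with edgeR 4.0.16 (R 4.3.3; TMM scaling, filterByExpr with a minimum count of 10 and total of 15, quasi-likelihood F test), with Benjamini-Hochberg adjustment over 14161 genes at 0.05. The 5 comparisons were the Mta2 label in each cell type, the cell type under each label, and the difference of the label's effects. CPM are TMM-scaled, and RPKM divides them by the counted exon length. DESeq2 1.42.0 and limma 3.58.1 (voom) served as alternatives, and the edgeR step was tested on simulated data. No 2 libraries of the same group agreed within sampling noise, and groups were taken from the sample labels.

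The named genes were the 3 genes themselves, the nearest tested genes, the 5 genes of at least 2 CPM on average most alike each (the report names some of them), up to 5 list members past the threshold with the lowest p (the lowest 2 where none passed), and Mta2. The 3 genes and the gene lists were chosen with earlier results of these data known. OcaB KO, double KO and pre-B samples were not analysed here, and 1 octamer target and 1 B cell marker are not reported here. Counting limits of 3 counts cover counting error only.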

Additional observations from a re-analysis of the deposited data

Results flagged for a closer look

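The level of Pou2af1 leaned in opposite directions between the Mta2 labels in the 2 cell types, and neither difference passed the test. The gene was flagged because both pro-B KO libraries were below both controls and all 3 small pre-B KO libraries were above all 3 controls. Groups that did not overlap were found for 55.5% of all genes in pro-B and 25% in small pre-B cells. The p-values below come from the same values as the flag, so they do not test it anew. The small pre-B effect minus the pro-B effect was 0.90 on the log2 scale, with an unadjusted p of 0.0104 and an adjusted p of 0.689 (edgeR quasi-likelihood test), so it did not pass over all genes. Under the alternatives that could be run, this difference lay between 0.68 and 1.18. The lean was not particular to Pou2af1. Mean RPKM of Pax5 was 82.7 in control and 56.0 in KO pro-B cells, and 398 and 436 in the small pre-B gate. Over the 7 B cell markers, Pax5 among them, the median label effect was -0.37 in pro-B and -0.0048 in small pre-B cells. The median difference of effects was 0.35, with 0 of the 7 called.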

How the results depend on the processing

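Pou2af1 kept its direction and its side of the threshold in all 5 comparisons under each alternative run. The genes called between the Mta2 labels depended on the settings. In pro-B cells 5 were called with edgeR, against 182 with DESeq2, 148 with limma-voom, 8 without a count filter and 8 with a filter of 1 CPM, 856 in a fit of the compared groups alone, and 0 to 25 with 1 library left out. In small pre-B cells the 428 called became 1869 with DESeq2, 0 in a fit of the compared groups alone, 1 to 1667 with 1 library left out (1 without control 1, 1667 without control 2) and 0 without the 2 libraries that hold Xist RNA, an alternative chosen after seeing the data. The difference of the effects gave 58 with DESeq2 and 0 to 40 with 1 library left out, 40 being without small pre-B control 2. From pro-B to small pre-B in Mta2 KO 4673 to 8657 genes were called with 1 library left out, the fewest without pro-B KO 2, against 7262.

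For Pou2f2 between control stages, upper-quartile scaling gave 0.47, the compared groups alone 0.49 and 1 library left out 0.39 to 0.63. With 1 library left out its difference in Mta2 KO was -0.079 to 0.26 and its pro-B label difference -0.29 to 0.050, and with DESeq2 its small pre-B label difference was -0.53. For Pou2f1 the pro-B label difference was -0.33 with the compared groups alone and then called (edgeR, adjusted p = 0.0445). Its difference of effects was -0.0089 with DESeq2 size factors, -0.0088 with DESeq2, -0.33 without the libraries that hold Xist RNA and -0.17 to 0.25 with 1 library left out. The log2 ratio of Pou2f2 to Pou2f1 between small pre-B labels was -0.57 to 0.061 with 1 library left out. The cause of these shifts was not tested.

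Title numbers are shared between labels. Same-numbered libraries correlated in their deviations from group means at 0.0147 in pro-B and 0.102, 0.155 and 0.0449 in small pre-B cells. Each small pre-B library correlated best with its own number. With so few libraries in a group these values cannot decide whether libraries were paired. The main fit did not take the numbers as pairs. With the numbers as a replicate block, 0 genes were called in pro-B and 153 in small pre-B cells. The block could not be fitted between cell types, where numbers do not recur.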
